A study of Homo sapiens with 8 samples.

Results

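The genes described here are 56 human genes that drive the cell cycle and copy the DNA. They span the G1/S cyclins and cell cycle transcription factors, the proteins that license and fire replication origins, the replication fork, checkpoint and repair factors, and the kinases, kinetochore, spindle and chromosome proteins of mitosis. They were taken by symbol from a list made with earlier results of these data known, and 56 of 56 were found among the 17561 genes of the deposited table. Their transcripts were measured by paired-end mRNA sequencing (reads of 150 bp) in HepG2, a human hepatoma cell line that divides continuously in culture, 48 h after transfection. There were 4 libraries from cells given pGRHL2 and 4 from cells given the control plasmid pcDNA3, with replicate numbers 1 to 4 in each group. All cells were kept in William's E medium with serum, insulin and dexamethasone.

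pGRHL2 carries a flag-tagged cDNA of GRHL2, a Grainyhead-like transcription factor of epithelia, behind the EEF1A1 promoter on a bicistronic transcript that also encodes EGFP. pcDNA3 is a control vector, so that GRHL2, EGFP and the plasmid backbone cannot be told apart in this comparison. HepG2 is a tumour line, and the RNA came from whole cultures after transient transfection. In such bulk RNA, fewer dividing cells and less RNA of a gene per dividing cell cannot be told apart.

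A cell that commits to divide accumulates D-type and then E-type cyclins, whose kinases inactivate RB and release the E2F factors, which switch on the genes of DNA synthesis. Origins are licensed in G1 by CDC6 and CDT1, which load the MCM2 to MCM7 helicase, and are fired in S phase with MCM10, CDC45 and GINS, while PCNA clamps the polymerases on the DNA. Cyclin B with CDK1 brings the cell into mitosis, the spindle checkpoint holds it there until the kinetochores are attached, and CDC20 then turns on the anaphase promoting complex. The transcripts of S phase are known as E2F targets, and those of mitosis peak later through the B-MYB, MuvB and FOXM1 complex.

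The promoters of these genes carry short motifs for these regulators, and 5 promoters are shown because their genes are described below as markers of S phase (E2F1, PCNA) or of mitosis and chromosome structure (CDC20, TOP2A, MKI67). Each line gives the 150 bases before a RefSeq start site (GRCh38.p14), 5′ to 3′ on the strand of the gene. Capitals mark CCAAT boxes (CCAAT), E2F sites (TTTNNCGC) and cell cycle homology regions (TTTGAA or TTCGAA), each on either strand.
E2F1, chr20:33686386-33686535, minus strand: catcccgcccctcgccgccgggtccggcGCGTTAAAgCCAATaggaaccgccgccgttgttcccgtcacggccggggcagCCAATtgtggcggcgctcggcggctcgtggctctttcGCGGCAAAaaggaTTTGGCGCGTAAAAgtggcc
PCNA, chr20:5126623-5126772, minus strand: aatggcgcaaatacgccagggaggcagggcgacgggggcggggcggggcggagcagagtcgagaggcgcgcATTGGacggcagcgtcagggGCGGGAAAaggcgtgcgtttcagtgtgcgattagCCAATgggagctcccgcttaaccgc
CDC20, chr1:43358831-43358980, plus strand: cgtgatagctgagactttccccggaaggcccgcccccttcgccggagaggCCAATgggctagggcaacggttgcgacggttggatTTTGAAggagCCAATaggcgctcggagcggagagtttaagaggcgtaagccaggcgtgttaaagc
TOP2A, chr17:40417897-40418046, minus strand: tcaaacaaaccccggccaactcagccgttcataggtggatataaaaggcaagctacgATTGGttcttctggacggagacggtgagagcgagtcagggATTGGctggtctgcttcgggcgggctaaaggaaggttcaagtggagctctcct
MKI67, chr10:128126424-128126573, minus strand: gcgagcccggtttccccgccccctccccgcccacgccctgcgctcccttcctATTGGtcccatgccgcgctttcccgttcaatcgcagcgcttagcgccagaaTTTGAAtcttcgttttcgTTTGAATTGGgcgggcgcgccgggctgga
In the stretches shown, each gene has 2 CCAAT boxes, E2F1 has 4 matches to the E2F site (some overlap) and PCNA has 1, while CDC20 has 1 cell cycle homology region and MKI67 has 2. PCNA has another RefSeq start that is not shown. Its 150 bases (chr20:5119959-5120108) hold 2 CCAAT boxes, 0 E2F sites and 0 cell cycle homology regions.

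The motifs were counted in the full RefSeq windows (250 bases before to 50 after each start), which were at hand for 45 of the 56 genes in 63 promoters. Some windows of the same gene overlap, such as those of CHEK1 and AURKB, so that a site can be counted more than once. Entries were missing for CCND1, CCNE2, E2F8, FOXM1, MCM4, MCM5, AURKA, TTK, BIRC5, TPX2 and UBE2C. A CCAAT box was in 47 of 63 promoters (74.6%), beside 34.6% of all 35116 promoters of that length. The E2F site was in 18 of 63 (28.6%, all promoters 6.89%), with 14 of 32 promoters (43.8%) of the G1/S, replication and repair genes and 4 of 31 (12.9%) of the mitotic genes. The cell cycle homology region had the other distribution, with 2 of 32 (6.25%) of the former and 19 of 31 (61.3%) of the latter, beside 16.4% of all promoters. These shares describe letters in the sequence, and no binding was measured. The Grainyhead site AACCGGTT was in 1 of 63 promoters, that of PCNA, where it begins 35 bases after the start (all promoters 0.134%). Its looser form AACNNGTT, which contains every AACCGGTT, was in 2 of 63 (3.17%, the same site in PCNA and 1 in MCM6), beside 3.52% of all promoters.

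The deposited values are on a log2 scale. The methods state that normalized values were divided by transcript length, but how this was done on a log2 scale could not be checked. Levels set side by side between genes rest on that statement and are approximate. In this table the values of a same-numbered pGRHL2 and pcDNA3 library lie at equal distances above and below the mean of the gene, in 17561 of 17561 genes. Differences between replicates that both plasmids shared are therefore no longer in the values, and the independent measurements of a gene are its 4 pair differences. For the same reason, the groups of a gene do not overlap exactly when its 4 pair differences have the same sign. A lack of overlap, where given below, says no more than that. The table holds no counts, so the depth of the libraries is unknown here.

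The transfected gene separated the labels. GRHL2 was at 16.22, 16.49, 16.87 and 16.33 in the pGRHL2 libraries 1 to 4 and at 7.25, 6.98, 6.61 and 7.15 in the pcDNA3 libraries (log2 FC 9.48, SE 0.17, limma adjusted p = 4.84e-08). All 4 pairs had the same sign, for which an exact two-sided sign-flip test gives p = 0.125, the smallest that 4 pairs allow. The hepatoma identity of the libraries showed in AFP (mean level 17.1) and ALB (16.9), which were far above the all-gene median of 6.72. Of 23 markers of liver, bile duct, blood, vessel and stromal cells 17 were in the table. None of them passed the test, beside 2.19% of all genes called in either direction. Among those of other lineages, PTPRC, CD3E, CD68, CDH5, COL3A1 and DCN were not in the table, VWF was at 1.91, and PECAM1, PDGFRB and COL1A1 were between 5.08 and 5.82. The leukocyte marker LYZ was at 13.3. LYZ shares 34.7% of its exon bases with another gene, and the reason for its high level was not tested. The bile duct markers KRT19, EPCAM, SOX9 and KRT7 were at 13.9, 11.6, 9.57 and 5.35. KRT7 (log2 FC 0.19, limma adjusted p = 0.097) and COL1A1 (0.20, 0.084) were higher with pGRHL2 in 4 of 4 pairs. So were the liver markers FGB (0.28, 0.249) and SERPINA1 (0.064, 0.451), beside 13.4% of all genes with this pattern.

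Most of the 56 genes were strongly expressed. Their median level was 9.66 on the deposited log2 scale, and 54 of 56 had a mean of at least 5. PCNA (12.38), TOP2A (12.35) and CCNB1 (11.92) were above 97.9% of all genes or more. E2F2 (6.01) and CCNE2 (6.04) lay below the all-gene median of 6.72. NUSAP1 (1.87) and PRC1 (1.06), which encode microtubule proteins of the mitotic spindle and of the cytokinetic midzone, were the members with a mean below 5. They were looked at after their values were seen. They share 86.8% and 61.9% of their exon bases with other annotated genes (GENCODE release 44), and reads over such bases can be left out of a count made in union mode without strand. Whether this bears on their levels was not tested, as no counts were at hand. TYMS (47.9%) and CCNE2 (37.1%) also share over 30% of their exon bases, so that the values of these 4 genes are uncertain.

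**Figure D1:**
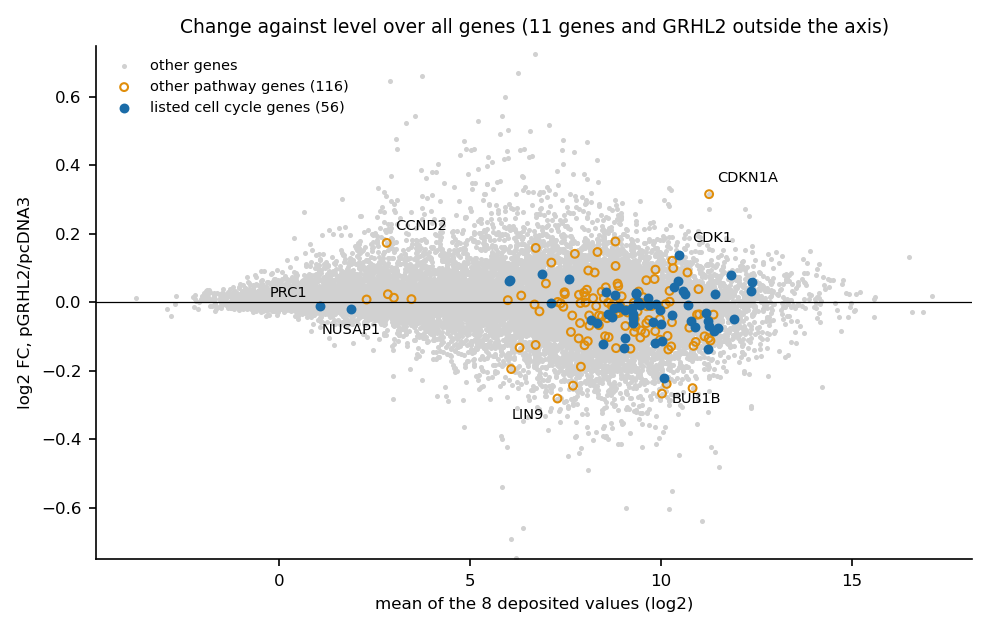
Each point is a gene, with the mean of its 8 deposited values (log2) on the horizontal axis and its log2 FC of pGRHL2 against pcDNA3 on the vertical axis. Grey points are all other genes, filled blue points the 56 listed cell cycle genes and open orange circles the 116 other pathway genes. The 56 genes lie between -0.22 (BUB1B) and 0.14 (CDK1), most of them at high levels.

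No member of the list passed the test between pGRHL2 and pcDNA3. In limma fits blocked on the replicate number, adjusted by Benjamini-Hochberg over all genes, 0 of 56 had an adjusted p under 0.05 in either direction, beside 1.69% of all genes called higher and 0.501% called lower (2.19% together). In the same fits, 73 of the 10858 genes with a mean of at least 5 were called higher and 81 lower. At an unadjusted p under 0.05 there were 2 of 56 (3.57%), CDC20 and BUB1B, beside 16.0% of all genes. The smallest adjusted p was 0.192, for CDC20. The log2 FC was above 0 in 19 genes and below 0 in 37, with a median of -0.018 that sat beside 0.0017 over all genes and -0.010 over the genes with a mean of at least 5. Across the 56 genes the 95% confidence intervals of the log2 FC reached from -0.41 to 0.34, that is from 0.755-fold to 1.26-fold, and their median distance from the estimate to a bound was 0.15. A p above the threshold does not show equal levels.

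The pGRHL2 and pcDNA3 libraries did not overlap in 5 of the 56 genes (8.93%), with pGRHL2 lower each time, beside 24.0% of all genes (13.4% higher and 10.5% lower). Among the 10858 genes with a mean of at least 5 the share was 22.5%, with 973 genes higher and 1473 lower. These 5 were CCNE1, CDC25A, AURKA, BUB1B and CDC20. In the fit without the replicate block, which counts each pair difference more than once because of the mirrored values, 4 of the 56 passed the test as lower: CDC20 (limma adjusted p = 0.0021), CDC25A (0.027), BUB1B (0.046) and CCNE1 (0.048). That fit called 1427 of all 17561 genes lower and 1821 higher, so that such calls were not particular to the list.

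**Figure D2:**
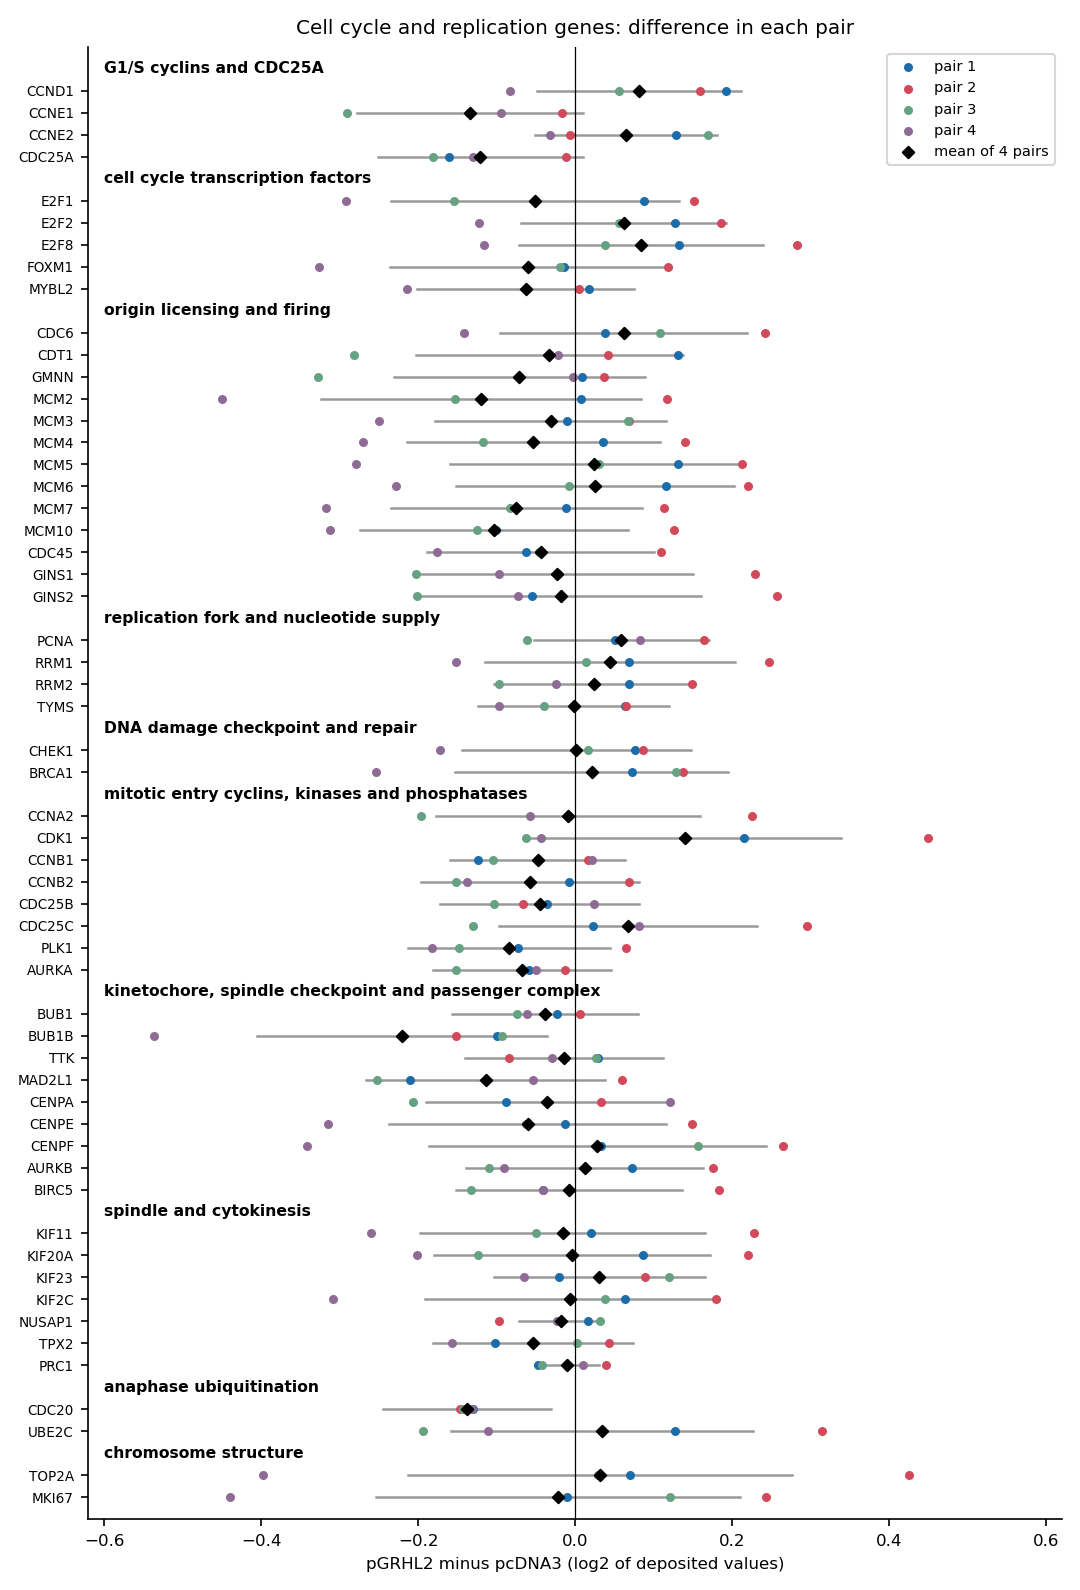
For each of the 56 genes, ordered by role, coloured points give the difference between the same-numbered pGRHL2 and pcDNA3 library (log2 of the deposited values), the black diamond the mean of the 4 pairs and the grey line its 95% confidence interval from limma. The diamonds lie within 0.22 of 0, and the points of pair 2 lie mostly to the right and those of pair 4 mostly to the left of the line at 0.

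Among the G1/S cyclins and CDC25A (4 genes, median log2 FC -0.028), CCNE1 (chr19:29811991-29824312), the E-type cyclin that starts S phase with CDK2, had the largest difference. It was at 8.96, 9.02, 8.88 and 8.98 with pGRHL2 and at 9.09, 9.03, 9.17 and 9.07 with pcDNA3. The groups did not overlap, but the gap in pair 2 was only -0.016, and the log2 FC of -0.13 (SE 0.063, limma adjusted p = 0.351) did not pass the test. CCND1 (chr11:69641156-69654474), the D-type cyclin that links growth signals to RB, was at 11.92, 11.91, 11.85 and 11.78 with pGRHL2 and at 11.73, 11.75, 11.80 and 11.87 with pcDNA3. Pair 4 had the opposite sign to the other 3, and the log2 FC was 0.081 (SE 0.057, limma adjusted p = 0.557). CDC25A, a phosphatase that activates CDK2, had a log2 FC of -0.12 with 4 of 4 pairs lower, and CCNE2, the other E-type cyclin, one of 0.065 with 2 of 4 pairs higher.

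The cell cycle transcription factors (5 genes) had a median log2 FC of -0.052. E2F1 (chr20:33675477-33686385), an activator of the S phase genes whose promoter is shown above, was at 8.22, 8.25, 8.10 and 8.03 with pGRHL2 and at 8.13, 8.10, 8.25 and 8.32 with pcDNA3. It was higher in pairs 1 and 2 and lower in pairs 3 and 4 (log2 FC -0.052, 95% confidence interval -0.23 to 0.13). E2F8 (chr11:19224063-19241620), an E2F repressor that is made in S phase, was at 6.93, 7.01, 6.89 and 6.81 with pGRHL2 and at 6.80, 6.73, 6.85 and 6.93 with pcDNA3. Its log2 FC of 0.084 (SE 0.068, limma adjusted p = 0.621) was the largest in absolute size of these factors. FOXM1 (chr12:2857680-2877174), which activates the mitotic genes, was at 9.26, 9.33, 9.26 and 9.11 with pGRHL2 and at 9.28, 9.21, 9.28 and 9.44 with pcDNA3. Pair 4 was at -0.33 and the other pairs between -0.020 and 0.12, and the log2 FC was -0.060 (SE 0.077, limma adjusted p = 0.778).

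The origin licensing and firing genes (13 genes, median log2 FC -0.033) ranged from -0.12 (MCM2) to 0.062 (CDC6, the loader of the helicase). MCM2 (chr3:127598410-127622436), a subunit of that helicase, was at 9.84, 9.89, 9.76 and 9.61 with pGRHL2 and at 9.83, 9.78, 9.91 and 10.06 with pcDNA3. The groups overlapped, with pair differences from 0.12 in pair 2 to -0.45 in pair 4 (log2 FC -0.12, SE 0.089, limma adjusted p = 0.585), and the log2 FC was -0.0099 without pair 4. pGRHL2 was higher in 13 of the 13 genes in pair 2 (median 0.13) and in 0 of 13 in pair 4 (median -0.23). GMNN, which encodes geminin, the inhibitor of CDT1, was near 0 in pairs 1, 2 and 4 and at -0.33 in pair 3.

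The genes of the replication fork and of nucleotide supply (4 genes) had a median log2 FC of 0.034, from -0.0022 (TYMS) to 0.059 (PCNA). PCNA (chr20:5114953-5126626) was at 12.41, 12.46, 12.35 and 12.42 with pGRHL2 and at 12.36, 12.30, 12.41 and 12.34 with pcDNA3. Pair 3 went against the others, and its limma adjusted p was 0.629. RRM1 and RRM2, the subunits of ribonucleotide reductase, had log2 FCs of 0.044 and 0.024. Of the checkpoint and repair genes, CHEK1, a kinase that halts the cycle when replication stalls, was at 0.0015 and BRCA1, which acts in homologous recombination, at 0.021. BRCA1 (chr17:43044295-43170245) was at 8.84, 8.87, 8.87 and 8.68 with pGRHL2 and at 8.77, 8.74, 8.74 and 8.93 with pcDNA3. It was higher in pairs 1 to 3 by 0.073 to 0.14 and lower in pair 4 (-0.25).

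The mitotic entry genes (8 genes, median log2 FC -0.047) held CDK1 (chr10:60778331-60794852), the kinase of mitosis, which had the most positive log2 FC of the 56. CDK1 was at 10.59, 10.71, 10.45 and 10.46 with pGRHL2 and at 10.38, 10.26, 10.51 and 10.50 with pcDNA3. Its differences of 0.21 and 0.45 in pairs 1 and 2 were not matched in pairs 3 and 4 (-0.062 and -0.044), and the log2 FC of 0.14 (SE 0.087, limma adjusted p = 0.500) came to 0.036 without pair 2. CCNB1 (chr5:69167135-69178245), its cyclin partner, was at 11.85, 11.92, 11.86 and 11.93 with pGRHL2 and at 11.98, 11.91, 11.97 and 11.91 with pcDNA3. The groups overlapped and the log2 FC was -0.048 (95% confidence interval -0.16 to 0.063). PLK1 and AURKA, mitotic kinases that act at the centrosome, had log2 FCs of -0.085 and -0.068, and 0 of the 8 genes were higher in pair 3.

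BUB1B (chr15:40161023-40221123) encodes BUBR1, a spindle checkpoint protein that holds CDC20 inactive, and had the most negative log2 FC of the 56. It was at 10.02, 9.99, 10.02 and 9.80 with pGRHL2 and at 10.12, 10.14, 10.11 and 10.33 with pcDNA3. The groups did not overlap, and pair 4 (-0.54) lay apart from pairs 1 to 3 (-0.15 to -0.094). The log2 FC was -0.22 (SE 0.081, unadjusted p = 0.025, limma adjusted p = 0.225) and was -0.115 without pair 4. The kinetochore, checkpoint and passenger genes as a group (9 genes) had a median of -0.035, and BUB1, MAD2L1 and TTK, which act in the same checkpoint, were at -0.038, -0.11 and -0.014.

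CDC20 (chr1:43358981-43363203), which activates the anaphase promoting complex, showed the most even difference. It was at 11.15 in each of the 4 pGRHL2 libraries and between 11.28 and 11.29 in the 4 pcDNA3 libraries, without overlap. The pair differences lay between -0.15 and -0.13, and their SD of 0.0082 was the smallest of the 56 genes, whose median SD was 0.16. With a log2 FC of -0.14 (SE 0.047, 95% confidence interval -0.24 to -0.030, unadjusted p = 0.018) it did not pass the adjusted test. limma draws the spread of each gene towards that of genes of like level, which gives CDC20 a wider error than its own pairs. Its neighbour in function UBE2C, the ubiquitin-conjugating enzyme of that complex, had a log2 FC of 0.034 with pair differences from -0.19 to 0.31.

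The spindle and cytokinesis genes (7 genes) had a median log2 FC of -0.0099. TPX2 (chr20:31739271-31801805), which activates AURKA on the spindle, had the largest absolute value of the group. It was at 10.74, 10.82, 10.80 and 10.72 with pGRHL2 and at 10.85, 10.77, 10.79 and 10.87 with pcDNA3 (log2 FC -0.053, SE 0.056, limma adjusted p = 0.717), and the groups overlapped. The kinesins KIF11, KIF20A, KIF23 and KIF2C lay between -0.016 and 0.031.

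TOP2A and MKI67 are the usual transcripts by which proliferation is read, and they varied most from pair to pair. TOP2A (chr17:40388525-40417896), the topoisomerase that untangles replicated chromosomes, was at 12.38, 12.56, 12.36 and 12.15 with pGRHL2 and at 12.31, 12.13, 12.33 and 12.55 with pcDNA3. MKI67 (chr10:128096659-128126423), which encodes the Ki-67 antigen that coats mitotic chromosomes, was at 9.96, 10.08, 10.02 and 9.74 with pGRHL2 and at 9.97, 9.84, 9.90 and 10.18 with pcDNA3. In both genes pGRHL2 was higher in pair 2 (by 0.43 and 0.24) and lower in pair 4 (-0.40 and -0.44). The SD of the 4 pair differences was 0.34 for TOP2A, the largest of the 56, and 0.30 for MKI67. Their log2 FCs were 0.032 (95% confidence interval -0.21 to 0.28) and -0.022 (-0.25 to 0.21), with limma adjusted p-values of 0.933 and 0.955.

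**Figure D3:**
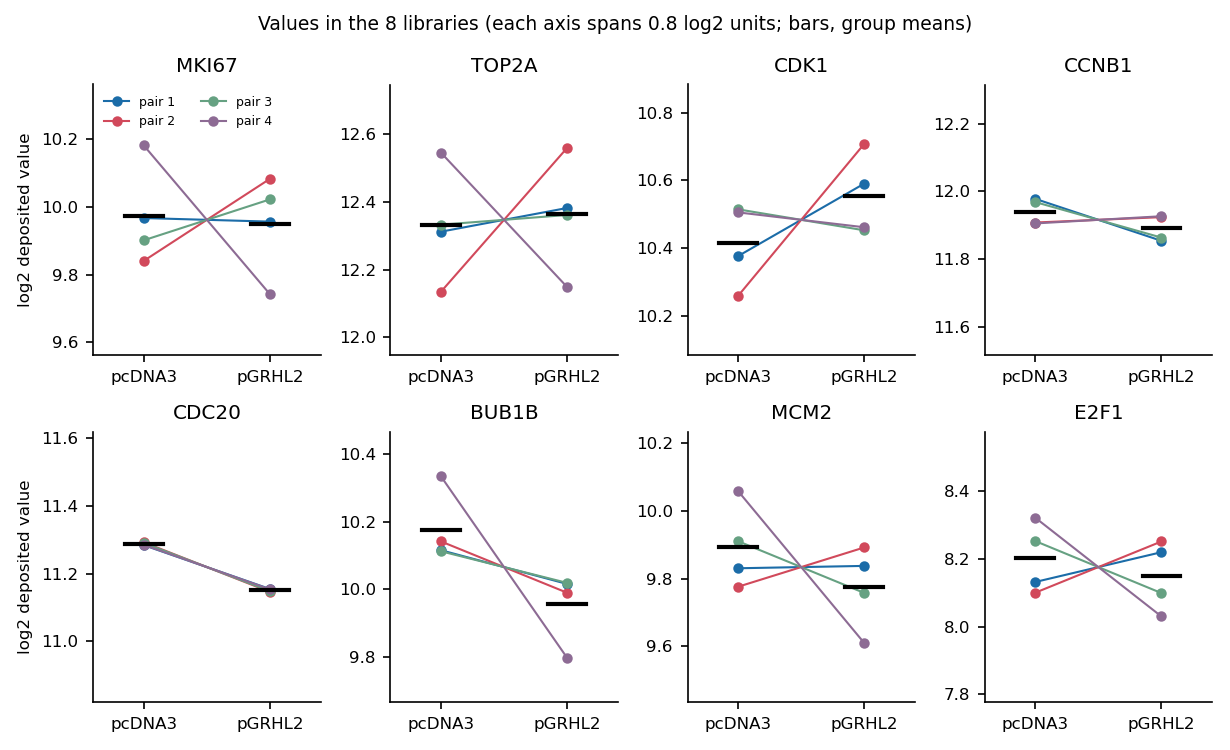
Deposited log2 values of 8 named genes in the 8 libraries, with pcDNA3 on the left and pGRHL2 on the right of each panel. Lines join the libraries of 1 replicate number, black bars are group means, and every vertical axis spans 0.8 log2 units. CDC20 has 4 near-identical lines, whereas the lines of TOP2A and MKI67 slope up in pair 2 and down in pair 4.

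The share of genes above 0 differed between the pairs. pGRHL2 was higher than pcDNA3 in 30 of 56 genes in pair 1, 47 in pair 2, 18 in pair 3 and 6 in pair 4, beside 51.5% to 52.3% of all genes in each pair. Among all genes with a mean of at least 5 that share was 45.9% to 48.0%. The median difference over the 56 genes was 0.012, 0.12, -0.068 and -0.13 in pairs 1 to 4, while the all-gene median lay between 0.00078 and 0.0059. The SD of the 4 list medians was 0.11, which is larger than the list's median log2 FC of -0.018, and the median SD of a member over its pairs was 0.16 against 0.085 over all genes and 0.12 over genes with a mean of at least 5. After trends with mean level, transcript length and GC content were removed from each pair difference, the counts were 36, 51, 18 and 5 of 56, with medians of 0.047, 0.14, -0.050 and -0.11. The 56 values of a pair come from the same libraries and are not independent, and no test was made of these counts. Outside the list, pGRHL2 was higher in 56, 77, 47 and 22 of the 116 other pathway genes described below in pairs 1 to 4, and in 12, 15, 7 and 8 of the 17 cell type markers. Of the 8 liver markers, 8 were higher in pair 2 and 3 in each of pairs 1, 3 and 4. In pair 4 TTR (0.062), SERPINA1 (0.19) and FGB (0.13) were higher. ALB (-0.12), AFP (-0.12), APOA1 (-0.13), APOB (-0.34) and HNF4A (-0.30) were lower in that pair. The part of the libraries of pairs 2 and 4 in these differences was not tested.

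**Figure D4:**
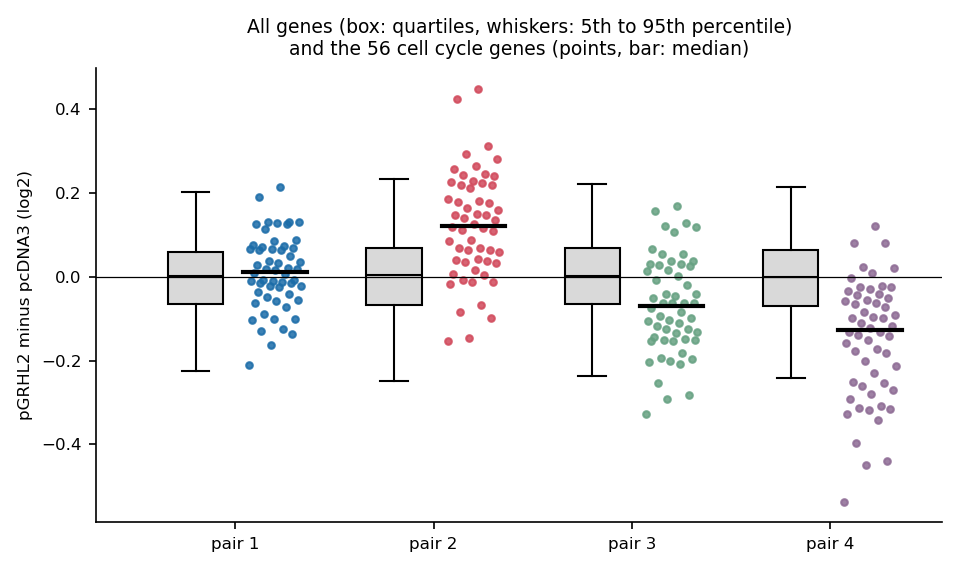
Difference between the same-numbered pGRHL2 and pcDNA3 library (log2) in each of the 4 pairs. Grey boxes give the quartiles of all 17561 genes with whiskers at the 5th and 95th percentiles, points are the 56 cell cycle genes and black bars their medians. The boxes are centred near 0 in every pair, while the points sit mostly above 0 in pair 2 and mostly below 0 in pair 4.

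Of 119 other genes of the same pathways 116 were in the table (CDKN1C, CCNA1 and SKA1 were not in it). Of the 116 genes 2 passed the test, 1 in each direction, beside 1.69% of all genes called higher and 0.501% called lower (2.19% together). CCND2 (chr12:4269771-4305353), a D-type cyclin, rose. It was at 2.90, 2.85, 2.92 and 2.93 with pGRHL2 and at 2.72, 2.77, 2.70 and 2.69 with pcDNA3 (log2 FC 0.17, SE 0.030, limma adjusted p = 0.026). The groups did not overlap, at a level that only 23.7% of genes lay below. LIN9 (chr1:226231149-226309869), a core subunit of the MuvB complex, fell. It was at 7.09, 7.13, 7.21 and 7.15 with pGRHL2 and at 7.48, 7.44, 7.36 and 7.42 with pcDNA3, again without overlap (log2 FC -0.28, SE 0.056, limma adjusted p = 0.043). Both calls depended on the processing: after the removal of the trends named above the adjusted p was 0.068 for CCND2 and 0.065 for LIN9, and leaving out a pair took the call from LIN9 each time (0.072 to 0.225) and from CCND2 without pair 1 (0.126), 3 (0.112) or 4 (0.091).

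Among the 116 genes 14 (12.1%) had an unadjusted p under 0.05, beside 16.0% of all genes. The groups did not overlap in 5 genes that were higher and 20 that were lower with pGRHL2 (21.6% together, beside 24.0%), and the median log2 FC was -0.016. Among all 10858 genes with a mean of at least 5, 973 were higher and 1473 lower in this way (22.5% together). The gene nearest to the threshold was CDKN1A (chr6:36676460-36687337), which encodes the CDK inhibitor p21. It was at 11.34, 11.36, 11.49 and 11.48 with pGRHL2 and at 11.18, 11.16, 11.03 and 11.04 with pcDNA3. All 4 pairs were higher, by 0.16 to 0.47, and the log2 FC was 0.32 (SE 0.066, limma adjusted p = 0.051). CDKN1B and E2F3, also of the G1 control, were looked at after their values were seen. CDKN1B, the gene of the inhibitor p27, differed by -0.27 on the log2 scale (0.069 for the limma adjusted p) and E2F3, an activator E2F, by -0.24 (0.056). Each gene was lower in 4 of 4 pairs.

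Apart from CCND2 and LIN9 no gene of that list passed the test, and the gene with the largest absolute log2 FC of each remaining role is given here with its limma adjusted p. CCND3, a further D-type cyclin, was at 0.18 with 4 of 4 pairs higher (0.194). ORC6, a subunit of the origin recognition complex, was at -0.24 (0.162), and FEN1, the nuclease that trims Okazaki fragments, at 0.12 (0.451). WEE1, the kinase that restrains CDK1, was at -0.13 (0.310), and SMC4, a condensin subunit, at -0.25 (0.146). KIF14, a cytokinesis kinesin, was at -0.20 (0.231), and FBXO5, an inhibitor of the anaphase promoting complex, at 0.15 (0.384). WEE1, SMC4, KIF14 and ORC6 were lower in 4 of 4 pairs, though ORC6 barely so in pair 4, and FEN1 was lower in pair 4 alone. Leaving out a pair changed several of these values by over 1.5 times: without pair 4 SMC4 was at -0.15, KIF14 at -0.097 and FEN1 at 0.19, and without pair 2 FBXO5 was at 0.068 and FEN1 at 0.066.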

How the data were processed

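Total RNA of HepG2 cells transfected with pGRHL2 or pcDNA3 (4 libraries each, called independent biological replicates) was sequenced as mRNA. The steps are those of the methods, and the versions those of the submitters' processing notes, which differ from the methods for HISAT2 and DESeq2. The authors mapped reads to hg38 (HISAT2 2.2.1), counted them over exons with HTSeq 0.9.1 in union mode without strand, dropped weakly covered genes, took the rlog of the counts in DESeq2 1.40.2 and divided it by mean transcript length. The deposited values are on a log2 scale, although the table is named as FPKM, and 3.71% lie below 0. Rlog shrinks the differences of weakly expressed genes. A stray character was removed from 1 value, and 0 columns belonged to other samples.

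The mean of each same-numbered pair of libraries was equal over the 4 numbers in 17561 of 17561 genes (largest spread 1.53e-13), a step the methods do not describe. By construction the deviations of paired libraries mirror each other, which makes a correlation check of the pairing void. The libraries were therefore paired by the replicate number of the labels. limma 3.58.1 in R 4.3.3 (lmFit, eBayes with trend) was fitted over all genes with that number as a block (3 residual degrees of freedom, 6 without). The adjustment was that of Benjamini-Hochberg, with a threshold of 0.05. A run on simulated data, in which genes varied independently of each other, does not cover genes that move together within a pair. The exact sign-flip test was also run in R, and the motif counts used Python 3.11.15. With no counts, depth is unknown.

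Members and lists were chosen with earlier results of these data known. Named were members that passed the test, the member with the largest absolute log2 FC of each role, the one with the largest SD of pair differences, 10 usual markers of cycling cells, GRHL2, and, of the other pathway genes, those called and the largest of each role. The alternatives tried were no block, centring on library medians, removal of level, length and GC trends (natural splines, 5 degrees of freedom), a mean of at least 5, robust eBayes, array weights, a threshold of 0.01, each pair left out, and a narrower promoter window (100 bases before the start). Gene positions and exon overlap came from GENCODE release 44, which matched 17537 genes, and promoters from RefSeq.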

Additional observations from a re-analysis of the deposited data

Results flagged for a closer look

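In 3 of the 68 sets of 4 pair differences examined, 1 pair lay far from the others (its gap to the nearest value, divided by the whole range, was above Dixon's 95% limit for 4 values), where about 1 set in 20 would be expected to do so by chance. GMNN was at -0.328 in pair 3, with -0.0030 to 0.037 in the other pairs. BRCA1 was at -0.254 in pair 4, with 0.073 to 0.137 in the other pairs. BUB1B was at -0.537 in pair 4, with -0.152 to -0.094 in the other pairs.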

How the results depend on the processing

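No cell cycle gene was called higher or lower under any alternative, including each pair left out (0 to 0 higher and 0 to 0 lower), except that 4 were called lower without the replicate block (7 at an unadjusted p under 0.05), where the mirrored values count each pair more than once. The pairing could not be checked from the data. Their median log2 FC lay between -0.069 without pair 2 and 0.022 without pair 4, and was -0.0010 with the trends removed, -0.023 after centring and -0.020 at a mean of at least 5.

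Without the replicate block the other pathway genes gave 4 higher and 14 lower calls and all genes 1821 and 1427. With the trends removed the other pathway genes gave 0 and 0 calls and all genes 153 higher. At a mean of at least 5 the counts were 0 lower in the pathway and 63 higher over all genes. Robust eBayes called 2 pathway genes higher, and array weights called 2 higher and 3 lower there and 503 and 221 over all genes. At an adjusted p under 0.01 the pathway had 0 and 0 calls and all genes 77 and 10. With a pair left out the pathway had 0 to 1 higher and 0 to 0 lower calls, and all genes had 79, 137, 111 and 156 higher without pairs 1 to 4 and 8, 13, 18 and 68 lower. The log2 FC of GRHL2 lay between 9.22 and 9.65.

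With pairs left out in turn the log2 FC changed sign for BRCA1 (-0.018 without pair 2, -0.015 without pair 3, at most 0.113), TOP2A (-0.099 without pair 2, at most 0.175), and, each without pair 4, MKI67 (0.118, at least -0.110), E2F1 (0.029, at least -0.119) and FOXM1 (0.028, at least -0.120). Of the 15 named cell cycle genes, 14 (all but CDC20) had a log2 FC that changed by over 1.5 times in some setting with a pair left out. MKI67 was also at 0.0062 with array weights. CDKN1A passed the test without the block (limma adjusted p = 0.0035), at a mean of at least 5 (0.044), with robust eBayes (0.042) and with array weights (0.048). The share of promoters with a CCAAT box was 57.1% in the narrower window. Apart from the lack of the block, of pairs or of weak genes that define these alternatives, the cause was not tested.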
